A study of Homo sapiens with 6 samples.

Results

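The genes described here are those that code for histones, the proteins that package DNA into nucleosomes. The cells were 143B, a human osteosarcoma line in long-standing use. Members were taken by name from the protein-coding rows of the deposited count table: gene names beginning with H1-, H2AC, H2BC, H3C, H4C, H2AZ, H3-3 or MACROH2A, and H2AX and H2AJ. The rule gave 65 genes of 22481 in the table, of which 16114 are protein-coding, and 3 further rows that match it were left out as non-coding. By name, 55 members are clustered replication-dependent genes and 10 are replacement variants. The series holds 6 libraries, each taken here as 1 of 6 wells. After 24 h of growth, 3 wells received celastrol, a plant triterpenoid, for 24 h, and 3 control wells were grown on for the same time. No dose is given, and it is not said whether controls received a vehicle. All wells hold the same line with no other agent named. Separate cultures were not assumed, so p-values measure the spread between wells, which may be technical.

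A nucleosome holds pairs of the core histones H2A, H2B, H3 and H4, and linker histone H1 binds the DNA that enters and leaves it. Replication-dependent histone genes have many copies, lie in clusters and are transcribed mainly in S phase to package new DNA. Their mRNAs usually end in a conserved stem-loop bound by SLBP rather than in a poly(A) tail. Replacement variants are single genes with ordinary polyadenylated mRNAs that are made throughout the cell cycle, and some take over specific places in chromatin. The libraries were made from RNA selected on oligo(dT) beads, so mRNAs that end in the stem-loop are recovered poorly. A count of a replication-dependent gene here therefore measures its polyadenylated or otherwise retained RNA and not its whole output. Fewer cells of a kind, such as cells in S phase, and less RNA per cell cannot be told apart in such bulk samples.

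The stem-loop was searched for in GENCODE transcripts as a fixed pattern of 16 bases. It has the 6-base stem GGYYYT, the 4-base loop THTH and the exact reverse complement of the stem. Y stands for C or T, and H for A, C or T. Stem-loops that depart from this pattern were not counted. It was found in 36 of 19702 protein-coding genes, 25 of which are members: 24 replication-dependent genes and H2AX, the only replacement variant that holds it. The other 31 replication-dependent genes had no match, but 29 of them have a longest transcript under 850 bases in that annotation, so that many models may stop before the site. The sites of 7 members described below are shown, since mRNAs that end there are the ones oligo(dT) selection misses. Each is 26 bases, 5′ to 3′, with the stem-loop in capitals.
H2AX: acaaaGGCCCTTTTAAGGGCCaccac
H2AC6: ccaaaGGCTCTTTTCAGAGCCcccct
H2BC4: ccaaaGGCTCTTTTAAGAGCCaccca
H2BC5: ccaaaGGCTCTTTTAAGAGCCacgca
H2BC21: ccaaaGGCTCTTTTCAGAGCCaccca
H3C6: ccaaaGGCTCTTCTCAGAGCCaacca
H4C8: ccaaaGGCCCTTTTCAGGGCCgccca
The 16-base form of H2AC6 and H2BC21 was the most frequent and was found in 13 members. That of H2AX was found in no other member, nor was that of H3C6. Annotated transcripts often run past this end: 18 of the 25 genes have a transcript that goes on for at least 100 bases after the stem-loop. It ran 1044 bases further in H2AX, 1114 in H2AC6, 1729 in H2BC21 and up to 1862 in H3C6. In H2BC5 a transcript with the stem-loop ran 39 bases further. The longest H2BC5 transcript has 789 bases and its deposited gene model 1320.

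Each library held 38.41 to 39.45 M counts. A gene with 0 counts may still have had up to 3 counts, which is 0.076 to 0.0781 CPM (counts per 1e+06), by counting error only. Markers of the mesenchymal lineage summed to 4750 to 4850 CPM with celastrol and 5790 to 6100 in controls, with vimentin high in every library and COL1A2 at or near 0. The sums were 6.95 to 7.26 against 5.92 to 6.6 CPM for epithelial markers, nearly all of it EPCAM with CDH1 at or near 0, and under 2 CPM for leukocyte and endothelial markers, with PTPRC and CDH5 at or near 0. The part of these shifts in the results was not tested.

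Of 65 histone genes, 32 had enough counts to test. With celastrol 8 rose and 4 fell at an adjusted p under 0.05 (edgeR quasi-likelihood test, Benjamini-Hochberg), while 48.4% of all 15387 tested genes were called, 23.6% higher and 24.8% lower. All 10 replacement variants were tested: 4 rose, 2 fell and 4 did not pass. Of 55 replication-dependent genes 22 were tested: 4 rose, 2 fell and 16 did not pass. The share called, 37.5% of tested members, was thus below that of all genes. It was 60% for the replacement variants and 27.3% for the replication-dependent genes, whose counts are far lower. Control and treated wells were fully apart in 15 of the 32, where 56.9% of all tested genes had groups that did not overlap. The median log2 fold change of the tested members was 0.06, against 0.00 (-0.000237) over all genes.

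**Figure D1:**
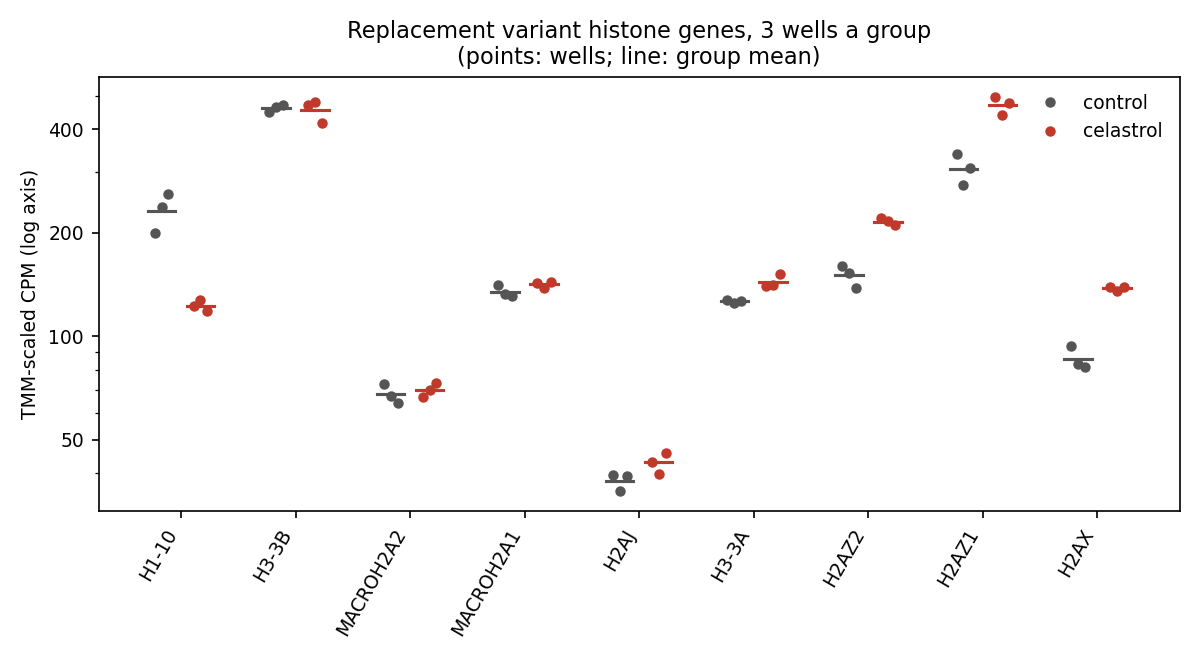
TMM-scaled CPM (log axis) of 9 replacement variants in each well, control in grey and celastrol in red, with lines at group means, ordered by log2 fold change. H1-10 at the left lies lower with celastrol, and H2AZ2, H2AZ1 and H2AX at the right lie higher, with no overlap between groups.

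Among the replacement variants, H1-10 fell. It codes for the divergent linker variant H1.10, also called H1X. H1-10 had 7689, 9014 and 9963 counts in controls and 4925, 5057 and 4661 with celastrol. All 3 treated wells were lower, and they lay closer together than the controls. The log2 fold change was -0.92 ± 0.08 (SE, adjusted p = 1.25e-07, edgeR), from 232 ± 29.8 to 123 ± 4.9 CPM (SD, n = 3). The gene lies at chr3:129314771-129316286 on GRCh38.p14, the build of all positions given. Some 22.9% of its exon bases overlap the antisense gene H1-10-AS1, whose own row held 75, 102 and 118 counts with celastrol and 107, 105 and 109 in controls.

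3 H2A variants rose. H2AX codes for the variant whose phosphorylated tail marks DNA double-strand breaks. It had 3607, 3156 and 3126 counts in controls and 5592, 5355 and 5497 with celastrol, so that every treated well exceeded every control well. From 86 ± 6.76 CPM it rose to 138 ± 2.18 CPM (SD, n = 3), a log2 fold change of 0.68 ± 0.07 (SE, adjusted p = 3.58e-07, edgeR). H2AX lies at chr11:119093874-119095465. Its gene is known to yield both a short stem-loop mRNA and a longer polyadenylated one, and these libraries select the second. The deposited table has 1 row for the gene and does not separate the forms.

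H2AZ1 and H2AZ2 code for the near-identical H2A.Z proteins, which sit in nucleosomes at gene starts. H2AZ1 had 13018, 10481 and 11906 counts in controls and 20022, 17459 and 18811 with celastrol, with no overlap. Its log2 fold change was 0.62 ± 0.07 (SE, adjusted p = 1.89e-06, edgeR), from 308 ± 31.2 to 473 ± 28.6 CPM (SD, n = 3). H2AZ2 had 6182, 5803 and 5340 counts in controls and 8847, 8531 and 8334 with celastrol, again without overlap. It rose by 0.52 ± 0.06 in log2 (SE, adjusted p = 4.07e-06, edgeR). H2AZ1 lies at chr4:99948088-99950275 and H2AZ2 at chr7:44826889-44848126. Per kilobase of the deposited gene models H2AZ1 was the higher of the pair, with mean FPKM over all libraries of 452 against 28.98. The gap in FPKM is much wider than that in counts and depends on the model lengths. These are 866 bases for H2AZ1 and 6340 for H2AZ2, whose longest GENCODE transcript has 3804 bases. The share of FPKM depends on them too. H2AZ1 held 94.1 ± 0.322% of the pair's FPKM with celastrol and 93.7 ± 0.654% in controls (SD of 3 wells; two-sided exact permutation test, p = 0.5).

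The genes for H3.3, the H3 variant placed into chromatin outside replication by HIRA and by DAXX with ATRX, code for 1 protein from a pair of genes. H3-3A had 4918, 4741 and 4894 counts in controls and 5618, 5571 and 5970 with celastrol. The groups did not overlap, and the rise of 0.19 ± 0.06 in log2 (SE, adjusted p = 0.0184, edgeR) was the smallest called among the members. It did not pass without celastrol replicate 3 (adjusted p = 0.13) or without control replicate 2 (adjusted p = 0.0636). Transcript stretches of 150 bases shared with other genes, processed pseudogenes among them, covered 8.76% of H3-3A, and the treatment of shared reads is unknown here. H3-3B had 17350, 17710 and 18100 counts in controls and 18976, 18976 and 16450 with celastrol, so its groups overlapped (log2 fold change -0.02 ± 0.06, adjusted p = 0.828, edgeR). H3-3B made up 63.6 ± 2.8% of H3.3 FPKM with celastrol and 66.8 ± 0.679% in controls (SD of 3 wells; two-sided exact permutation test, p = 0.1, the smallest that 3 wells against 3 can give).

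The other 3 replacement variants did not pass. H2AJ, a mammalian H2A variant, had 1515, 1344 and 1509 counts in controls and 1736, 1575 and 1808 with celastrol. Its groups did not overlap at 38.0 ± 2.25 and 43.0 ± 3.0 CPM (log2 fold change 0.18 ± 0.09, adjusted p = 0.0989, edgeR), and it passed in 4 of 16 alternative settings. MACROH2A1 and MACROH2A2 code for H2A variants with a large extra domain found on the inactive X chromosome and other silent chromatin. Their log2 fold changes were 0.07 ± 0.06 and 0.04 ± 0.07 (adjusted p = 0.338 and 0.696, edgeR), and in both the groups overlapped. The counts of MACROH2A1 are uncertain, since 23.6% of its transcript stretches are shared with other genes and 30.9% of its exon bases overlap genes on the opposite strand.

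Promoter windows from RefSeq, on GRCh38.p14 and running from 250 bases before to 50 after the annotated start, were given for 58 of the members and are shown for 4 whose RNA changed. They let the variants be set beside a clustered gene. Capitals mark matches on either strand to TATAAA, to CCAAT and to the octamer ATTTGCAT, which is known from H2B promoters. H2AZ1 at chr4:99950226-99950525 and H2AX at chr11:119095416-119095715, both on the minus strand, rose, H1-10 at chr3:129316237-129316536 on the minus strand fell, and the clustered gene H2AC6 at chr6:26123922-26124221 on the plus strand rose.
H2AZ1: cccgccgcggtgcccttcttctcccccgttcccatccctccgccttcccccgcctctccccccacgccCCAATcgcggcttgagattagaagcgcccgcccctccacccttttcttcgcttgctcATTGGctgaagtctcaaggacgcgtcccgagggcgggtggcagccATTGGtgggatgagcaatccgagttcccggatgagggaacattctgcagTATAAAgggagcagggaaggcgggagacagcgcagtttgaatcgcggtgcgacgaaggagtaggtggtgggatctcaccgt
H2AX: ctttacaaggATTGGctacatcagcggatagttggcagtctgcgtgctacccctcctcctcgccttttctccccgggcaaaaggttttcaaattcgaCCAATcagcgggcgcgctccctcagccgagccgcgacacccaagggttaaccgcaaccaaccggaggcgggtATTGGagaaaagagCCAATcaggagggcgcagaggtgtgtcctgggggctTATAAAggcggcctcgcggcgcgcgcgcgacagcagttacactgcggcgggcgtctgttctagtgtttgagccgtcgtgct
H1-10: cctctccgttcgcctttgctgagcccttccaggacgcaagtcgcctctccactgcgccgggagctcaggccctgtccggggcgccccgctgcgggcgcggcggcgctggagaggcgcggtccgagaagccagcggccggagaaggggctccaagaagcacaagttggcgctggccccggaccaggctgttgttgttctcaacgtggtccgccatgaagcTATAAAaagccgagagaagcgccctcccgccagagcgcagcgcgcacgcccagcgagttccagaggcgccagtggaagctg
H2AC6: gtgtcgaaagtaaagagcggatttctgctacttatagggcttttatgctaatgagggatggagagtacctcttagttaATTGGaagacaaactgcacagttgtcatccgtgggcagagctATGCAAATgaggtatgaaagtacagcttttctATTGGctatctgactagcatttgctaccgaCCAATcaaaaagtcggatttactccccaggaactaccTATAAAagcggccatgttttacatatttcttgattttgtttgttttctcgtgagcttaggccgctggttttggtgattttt
All 4 hold TATAAA beginning 31 bases before the start. CCAAT is there 3 times in H2AZ1, 4 times in H2AX, 3 times in H2AC6 and not at all in H1-10. H2AC6 alone of the 4 holds the octamer, and it has 8 CpG against 25 in H2AZ1, 28 in H2AX and 32 in H1-10. CCAAT was found in 42 of 49 replication-dependent windows (85.7%) and 6 of 9 replacement windows (66.7%), beside 35.7% of 27305 windows of all genes. By family it was in every H1, H2A, H2B and H3 window of the clusters but in 1 of 8 of H4. TATAAA was in 65.3% of the replication-dependent windows and 12% of all. The octamer was in 22 of 49 replication-dependent windows (44.9%), against 1.8% of all, and within these in 12 of 15 H2B windows and 9 of 13 H2A windows. Windows of back-to-back genes overlap, so 1 site can count in both families, as with H2AC6 and H2BC4 (chr6:26123877-26124176). A match to these letters is a description of the sequence and not a measured binding site.

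**Figure D2:**
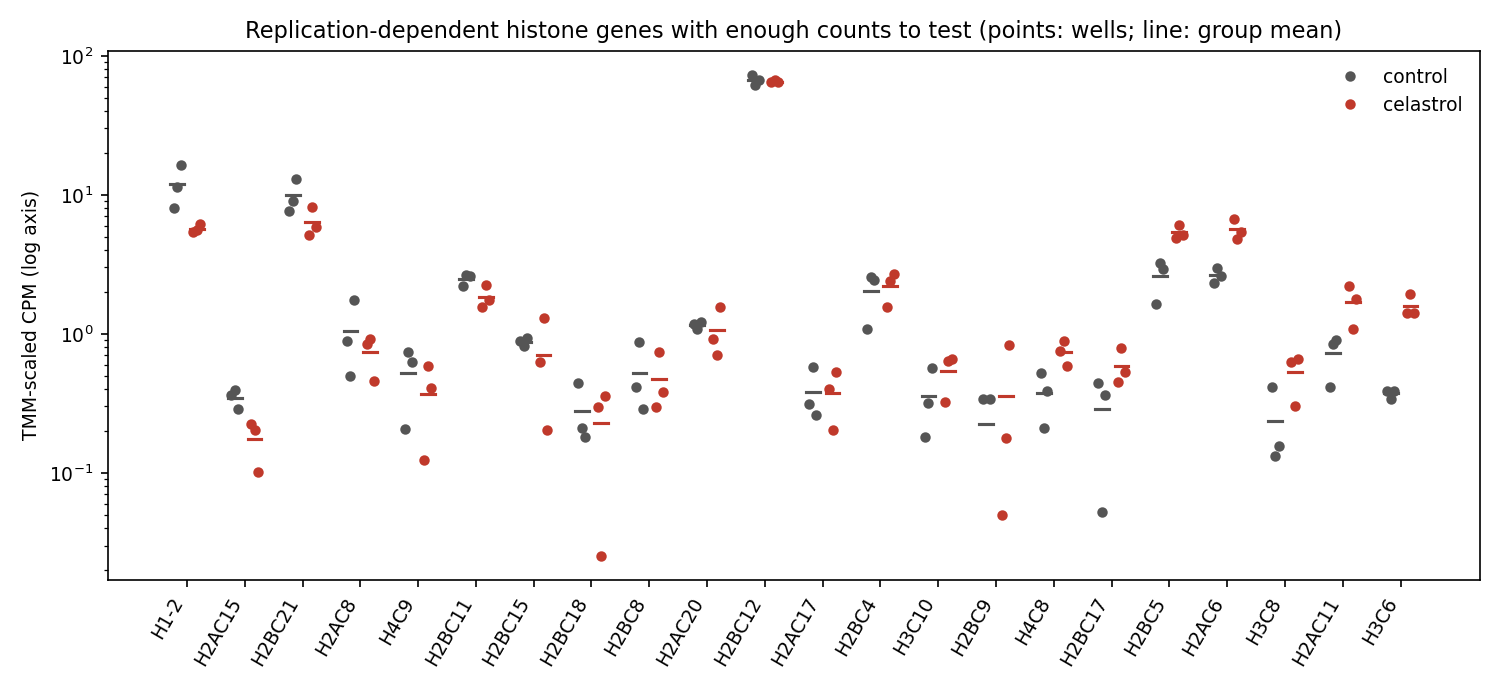
TMM-scaled CPM (log axis) of the 22 tested replication-dependent genes in each well, control in grey and celastrol in red, with lines at group means, ordered by log2 fold change. H2BC12 lies at 61.5 to 73.0 CPM in both groups, far above the rest, of which H1-2 in control well 3 is the highest at 16.5 CPM.

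The replication-dependent genes gave few counts. Summed over all 55, they held 4045, 3867 and 4553 counts in controls and 4082, 4322 and 4179 with celastrol, beside 79430, 78522 and 83170 against 82378, 80746 and 77634 for the 10 replacement variants. As a share of all counts they made 0.0107 ± 0.000777% in controls and 0.0107 ± 0.000385% with celastrol (SD of 3 wells; two-sided exact permutation test, p = 1), a log2 ratio of 0.01 (0.00536). The replacement variants made 0.207 ± 0.00382% and 0.205 ± 0.00561% (exact permutation p = 0.8). The wells of the groups overlapped in both sums. The sums join families whose own sums moved differently. Among replication-dependent genes, H2A held 231, 250 and 282 counts in controls and 472, 376 and 413 with celastrol. Those of H3 held 45, 47 and 76 against 110, 125 and 156, and those of H1 held 316, 440 and 640 against 227, 221 and 251. In H2B and H4 the groups overlapped. Called genes described below carry much of these moves, so the sums do not show a move of each family as a whole. H1-2 held 308, 431 and 634 of the H1 counts in controls and 217, 220 and 244 with celastrol. H2AC6 held 89, 113 and 101 of the H2A counts against 271, 189 and 213, and H2AC11 held 16, 32 and 35 against 88, 43 and 70. H3C6 held 15, 13 and 15 of the H3 counts against 57, 77 and 56. Of the histone counts, 4.91 ± 0.254% in controls and 4.97 ± 0.216% with celastrol came from replication-dependent genes (exact permutation p = 0.9). The clusters at 6p22 and 1q21 hold 45 and 9 of the 55 genes, of which 19 and 3 were tested.

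H2BC12 alone, an H2B gene of the 6p22 cluster at chr6:27138293-27146858, gave 62.1 ± 6.61% of the replication-dependent counts in controls and 61.8 ± 1.3% with celastrol (SD, n = 3, exact permutation p = 1). It had 2809, 2334 and 2576 counts in controls and 2583, 2626 and 2568 with celastrol. The groups overlapped, and the log2 fold change was -0.04 ± 0.08 (SE, adjusted p = 0.7, edgeR). The sum thus mostly follows a gene whose difference did not pass the test.

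H2AC6 rose by 1.10 ± 0.21 in log2 (SE, adjusted p = 0.000304, edgeR). It had 89, 113 and 101 counts in controls and 271, 189 and 213 with celastrol, and its lowest treated well was above the highest control. Its 26-base stem-loop end is shown above, and its longest annotated transcript, of 1668 bases, runs well past the 519 bases of the deposited gene model at chr6:26124172-26124690. H2BC5, a gene of the same cluster, at chr6:26158121-26171349, had 63, 123 and 113 counts in controls and 198, 241 and 202 with celastrol. It rose by 1.05 ± 0.24 in log2 (SE, adjusted p = 0.00147, edgeR), with control well 1 the lowest of the 6. H2AC6 and H2BC5 code for canonical H2A and H2B.

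H3C6, an H3 gene at chr6:26224178-26227473, gave the largest fold among the members. It had 15, 13 and 15 counts in controls and 57, 77 and 56 with celastrol, without overlap. The log2 fold change was 2.08 ± 0.42 (SE, adjusted p = 0.000564, edgeR), from 0.374 ± 0.0274 to 1.6 ± 0.306 CPM (SD, n = 3), so it remained a low transcript. H2AC11, an H2A gene at chr6:27133043-27133535, had 16, 32 and 35 counts in controls and 88, 43 and 70 with celastrol. It rose by 1.22 ± 0.41 in log2 (SE, adjusted p = 0.0212, edgeR). Leaving out celastrol replicate 1 ended the call (adjusted p = 0.123), as did leaving out celastrol replicate 3 (0.0633) or control replicate 1 (0.0665).

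H1-2, a linker histone of the 6p22 cluster at chr6:26055740-26056470, fell. It had 308, 431 and 634 counts in controls and 217, 220 and 244 with celastrol, and the controls spread widely while the treated wells lay close together below them. The log2 fold change was -1.06 ± 0.21 (SE, adjusted p = 0.000597, edgeR), from 11.9 ± 4.26 to 5.72 ± 0.415 CPM (SD, n = 3). It was the only tested linker gene of the clusters. H2BC21, an H2B gene at chr1:149884459-149886682 known for a polyadenylated form, had 295, 344 and 503 counts in controls and 208, 324 and 231 with celastrol. Its groups overlapped, since celastrol well 2 was above control well 1, and the log2 fold change was -0.63 ± 0.21 (SE, adjusted p = 0.0189, edgeR). Leaving out celastrol replicate 1 ended the call (adjusted p = 0.0882), as did leaving out celastrol replicate 3 (0.0734) or control replicate 3 (0.147), or using limma on FPKM (0.0523 and 0.0579).

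Of the 15 other tested replication-dependent genes beside H2BC12, no gene passed, and 3 had groups that did not overlap. H2AC15 had 14, 15 and 11 counts in controls and 9, 8 and 4 with celastrol (log2 fold change -0.97 ± 0.66). H4C8 had 20, 8 and 15 against 30, 35 and 23 (0.98 ± 0.53), and H2BC17 had 17, 2 and 14 against 18, 31 and 21 (1.03 ± 0.64). At such counts the SE is over 0.5 in log2, and a 1.5-fold difference is not detectable at this depth. H3C8 had a log2 fold change of 1.16 ± 0.63, H2BC9 of 0.64 ± 0.96 and H3C10 of 0.59 ± 0.58. Values for H2BC4 were 0.13 ± 0.33, for H2AC17 -0.02 ± 0.60 and for H2AC20 -0.13 ± 0.40. They were -0.15 ± 0.58 for H2BC8, -0.29 ± 0.77 for H2BC18 and -0.31 ± 0.55 for H2BC15. H2BC11 gave -0.43 ± 0.27, H4C9 -0.49 ± 0.64 and H2AC8 -0.49 ± 0.50. The values lie on both sides of 0. By limma on FPKM, H4C8 and H3C8 passed as higher and H2AC15 and H2BC11 as lower (adjusted p from 0.0139 to 0.0433). Transcripts of H2AC15 and H2AC17 share 100% and 80.7% of their bases, in stretches of 150, with genes beside them, so their counts are uncertain. Shared stretches cover 10.3% of H2BC18, whose count is uncertain too.

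The 33 members that the filter on low counts removed, all of them replication-dependent, had at most 37 counts in any library, and 24 had at most 10 in every library. Together they held 70, 55 and 99 counts in controls and 96, 125 and 134 with celastrol. With no filter all 55 were tested and 1 of the 33 passed, H2AC13 (log2 fold change 3.13, adjusted p = 0.0143, edgeR), which had 1, 0 and 4 counts in controls and 1, 37 and 10 with celastrol, so that most of its counts came from 1 well. By family, tested genes were 1 of 4 in H1, 6 of 14 in H2A, 10 of 16 in H2B, 3 of 11 in H3 and 2 of 10 in H4. The 8 core histone genes of the clusters with a model of at least 600 bases held 84.7 to 87.1% of the core replication-dependent counts in controls and 81.2 to 82.2% with celastrol, and 6 of them were tested. H2BC12 carried most of this: without it the share was 47.6 to 55.1% in controls and 43.1 to 50.5% with celastrol. Of the 43 with shorter models, with a median of 482 bases, 15 were tested. Where a transcript runs past a short model, its reads there are not in these counts, and 14 replication-dependent genes have a GENCODE transcript at least 500 bases longer than the model.

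**Figure D3:**
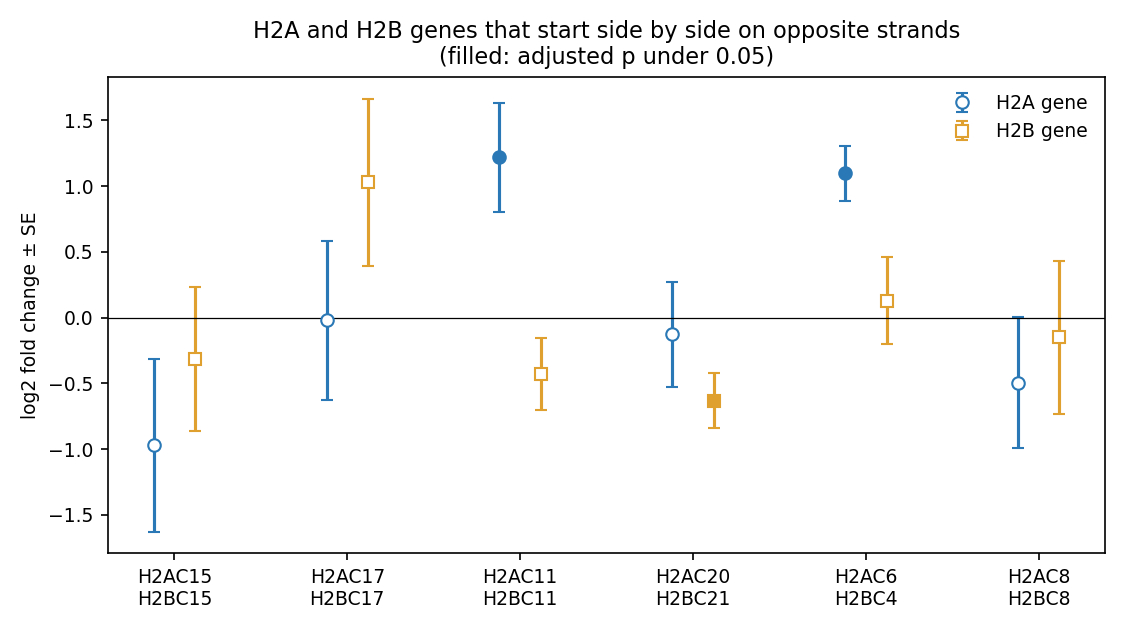
Log2 fold change with SE for the 6 pairs of H2A (blue circles) and H2B (orange squares) genes that start side by side on opposite strands and were both tested; filled symbols passed at an adjusted p under 0.05. In 3 pairs 1 of the genes is filled, and in none are both.

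Many H2A and H2B genes start back to back and share the DNA between them. Starts were compared among the 58 members with a promoter window. This leaves out H2AC12, an untested gene beside H2BC12, for which no window was given. The comparison gave 8 back-to-back H2A and H2B pairs, with starts 194 to 248 bases apart, and in 6 both genes were tested. In 3 of these 1 gene was called and in none both. H2AC6 rose by 1.10 while H2BC4, whose start is 246 bases away, gave 0.13. H2AC11 rose by 1.22 beside -0.43 for H2BC11, and H2BC21 fell by 0.63 beside -0.13 for H2AC20. Whether the genes of a pair differed in response was tested on the log2 ratio of H2A to H2B counts in each well. For H2AC11 and H2BC11 it was -2.37, -1.64 and -1.5 in controls and 0.479, -1.02 and 0.0206 with celastrol, higher in all 3 treated wells (difference 1.66, exact permutation p = 0.1, adjusted over the 6 pairs 0.6). For H2AC6 and H2BC4 the groups overlapped (difference 0.90, exact permutation p = 0.3, adjusted 0.8). For H2AC20 and H2BC21 they did too (difference 0.42, exact permutation p = 0.5, adjusted 0.8). The other 3 pairs had differences of the opposite sign, also with overlap: -1.42 for H2AC17 and H2BC17, -0.33 for H2AC15 and H2BC15 and -0.27 for H2AC8 and H2BC8 (exact permutation p = 0.6, 0.7 and 0.8, adjusted 0.8 each). With 3 wells against 3 no pair could pass, so unequal response within a pair was not shown.

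**Figure D4:**
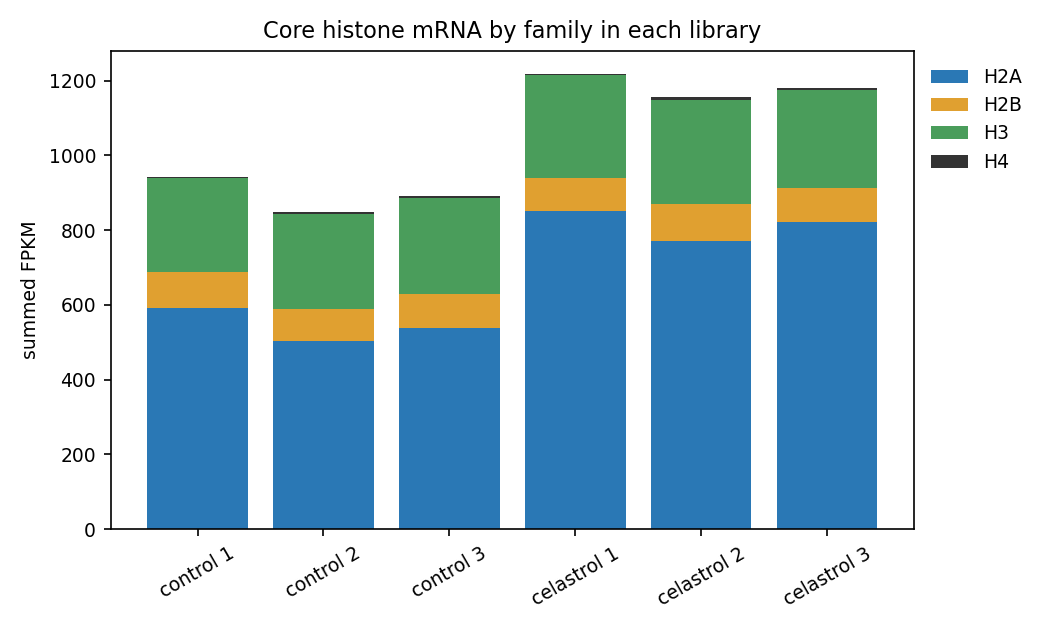
Summed FPKM of the core histone genes in each library, stacked by family. The H2A part is larger in the 3 celastrol libraries (772 to 851 FPKM) than in the 3 controls (504 to 593 FPKM), and the H2B and H4 parts differ little.

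To compare families, FPKM, which divides by gene length, was summed over the core histone members of each; these sums were chosen after the data were seen. H2A genes summed to 593, 504 and 538 FPKM in controls and 851, 772 and 822 with celastrol, so that the treated sums were all higher (log2 ratio 0.58, exact permutation p = 0.1, the smallest possible). H3 genes summed to 254 ± 2.47 FPKM in controls and 273 ± 8.69 with celastrol (SD, n = 3, exact permutation p = 0.1), and H2B genes to 91.2 ± 5.44 and 92.3 ± 4.2 FPKM (exact permutation p = 0.9). H4 genes, which have no replacement variant here, summed to 3.9 ± 0.861 and 4.51 ± 1.41 FPKM (exact permutation p = 0.7). All core histone genes together summed to 894.5 ± 47.9 FPKM in controls and 1185 ± 33 with celastrol (SD, n = 3, exact permutation p = 0.1). H2AZ1 alone had a mean of 350 FPKM in controls and 553 with celastrol. Most of the rise in the H2A sum and in the sum of all core histone genes thus came from this gene. The H2A share of core histone FPKM was 62.8, 59.5 and 60.4% in controls and 69.8, 66.9 and 69.6% with celastrol, a mean of 60.9 ± 1.74% against 68.8 ± 1.65% (SD, n = 3, exact permutation p = 0.1). H2A.Z made up 68.5 ± 1.16% and 72.1 ± 0.768% of H2A FPKM, and without H2AZ1 the log2 ratio of the H2A share was 0.21 beside 0.18 (0.175) with it. The H3 share was 28.5 ± 1.73% in controls and 23.1 ± 1.03% with celastrol, and the H2B share 10.2 ± 0.142% and 7.8 ± 0.566% (exact permutation p = 0.1 each). The values describe polyadenylated RNA and not the proteins, of which chromatin needs like amounts for the core histones.

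**Figure D5:**
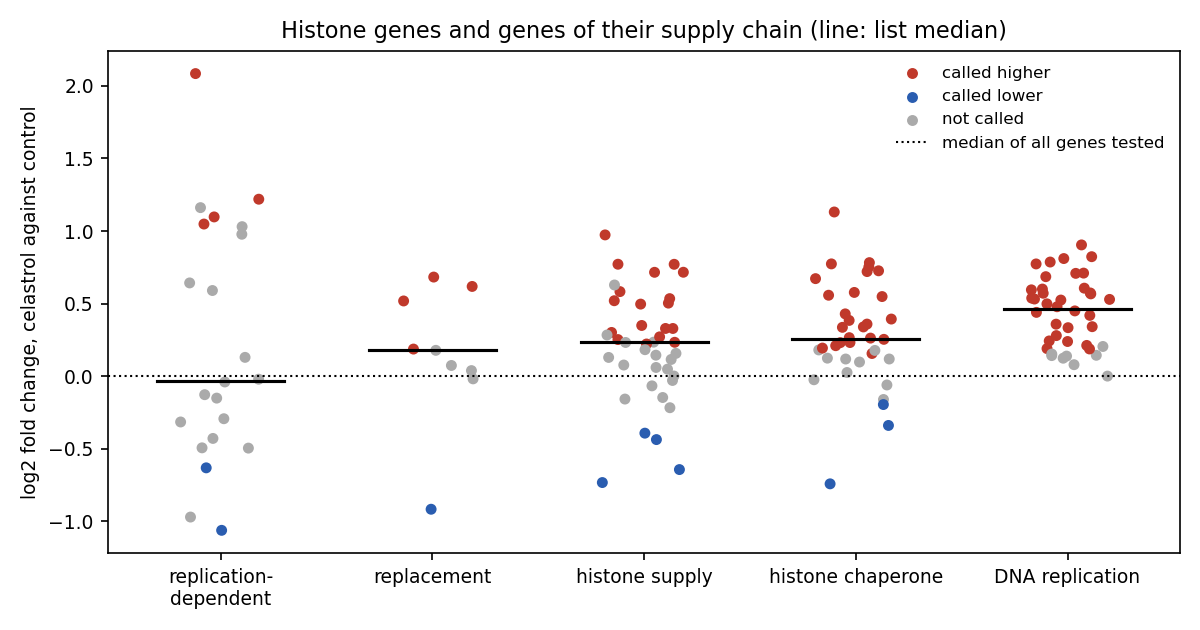
Log2 fold change of each tested gene, celastrol against control, in the 2 histone classes (9 replacement variants drawn) and in 3 lists of genes that supply, carry or use histones; red and blue points were called higher and lower, and solid lines are medians of the points drawn. The 3 lists at the right have medians of 0.23, 0.25 and 0.46, above the dotted median of all genes.

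A list of 40 genes, all tested and here called supply genes, was drawn up for transcription, 3′ end processing and decay of replication-dependent histone mRNA. Of the 40, 18 rose, 4 fell and 18 did not pass (55% called, median log2 fold change 0.23). The list is not specific to histone mRNA, since it takes in general pre-mRNA cleavage and polyadenylation factors. Examples are CPSF4, WDR33, PCF11, CLP1 and CSTF3, called higher, FIP1L1, called lower, and CSTF1, which did not pass. NPAT, the coactivator that turns on the histone clusters in S phase, rose by 0.30 ± 0.10 in log2 (SE, adjusted p = 0.0151, edgeR), a call that did not hold without celastrol replicate 2 (0.0657) or 3 (0.0521). CASP8AP2, a partner in the same nuclear bodies, rose by 0.72 ± 0.12. ZNF473, which binds at the stem-loop in the U7 processing complex, rose by 0.97 ± 0.10, from 15.8 ± 0.52 to 30.9 ± 2.06 CPM (SD, n = 3). LSM11, a protein specific to the U7 particle, fell by 0.64 ± 0.10, and its partner LSM10 gave 0.23 ± 0.11 (adjusted p = 0.0897, edgeR). SLBP, which binds the stem-loop, had 60.6, 69.8 and 76.5 CPM in controls and 70.9, 71.6 and 71.4 CPM with celastrol, with overlap (0.05 ± 0.08, adjusted p = 0.649, edgeR). MIF4GD, also called SLIP1, links SLBP to translation and fell by 0.73 ± 0.11. TUT7, a terminal uridylyltransferase, fell by 0.44 ± 0.10. PCF11, a pre-mRNA cleavage factor, rose by 0.77 ± 0.08, as did SRRT, also called ARS2, by 0.77 ± 0.09.

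Histone chaperones and depositing factors, a list of 37, gave 24 higher, 3 lower and 10 that did not pass (73% called, median 0.25). CHAF1A, the large subunit of the CAF-1 complex that loads H3 and H4 behind the fork, rose by 0.58 ± 0.07, and its partner CHAF1B gave 0.12 ± 0.09 (adjusted p = 0.265, edgeR). ASF1B and ASF1A, which hand over H3 and H4, rose by 0.67 ± 0.08 and 0.34 ± 0.10, and NASP, which keeps a reserve of them, by 0.26 ± 0.06. MMS22L rose by 1.13 ± 0.11 and its partner TONSL, which reads new H4, by 0.78 ± 0.09. Of the H3.3 chaperones, HIRA rose by 0.77 ± 0.10 and ATRX by 0.43 ± 0.08, while DAXX gave 0.12 ± 0.07 (adjusted p = 0.122, edgeR). HJURP, the chaperone of the centromeric H3 variant, had 214, 276 and 246 CPM in controls and 143, 147 and 151 CPM with celastrol. It fell by 0.74 ± 0.08. CDAN1, a partner of ASF1, fell by 0.34 ± 0.12 (adjusted p = 0.0299, edgeR) and CABIN1, a HIRA partner, by 0.19 ± 0.07 (adjusted p = 0.0368, edgeR), and each of these calls was lost in 7 of 16 alternatives, among them scaling by library size alone (0.0532 and 0.0991).

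DNA replication genes, a list of 40, gave 32 higher, 0 lower and 8 that did not pass (80% called, median 0.46). None had a log2 fold change below 0, so the count lower was 0 at an unadjusted p under 0.05 too, and by DESeq2 and limma-voom. GINS3 rose by 0.90 ± 0.10 and GINS4 by 0.81 ± 0.08, both subunits of the replicative helicase, and TIPIN, a fork protection factor, by 0.82 ± 0.09. Against 23.6% of all genes called higher, the share was 45% for supply genes, 64.9% for chaperones and 80% for replication genes, and it was 18.2% for the replication-dependent histone genes and 40% for the replacement variants. These lists were chosen with results of the same data known, and no list was tested against another.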

How the data were processed

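RNA of 6 wells was sequenced after oligo(dT) selection in 2 rounds, with a strand-marking dUTP protocol, per the labels' protocols. The submitters' processing notes name build hg38, edgeR, DESeq2, StringTie 2.1.6, HISAT2 2.2.1 and cutadapt 1.9, without roles; counting settings, use of strand and annotation release are not given in the sources used. The deposited counts are whole reads for each gene, without normalization. The FPKM deposited by the authors are the same counts divided by gene length and library total (20198 genes with the same length in every library, within 1e-06).

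Counts were filtered (filterByExpr, 15387 genes kept), scaled by TMM and compared with edgeR 4.0.16 (quasi-likelihood, robust) in R 4.3.3, with Benjamini-Hochberg adjustment over all genes and calls at an adjusted p under 0.05. The SE is the absolute log2 fold change over the square root of F. Single sums and ratios were compared by two-sided exact permutation, for which the smallest p is 0.1; ratios of counts had 0.5 added to each count. The script was tested on simulated data. Every tested member is named except 1 that is not reported here, which counts of members and summed counts include; from each list the 3 largest called changes in each direction at a log2 CPM of at least 2, with 14 genes fixed by role, some of which both parts of the rule take. Members, lists and tests were chosen with earlier results of these data known. The alternatives tried were scalings, filters, tools (DESeq2 1.42.0, limma 3.58.1), FPKM with pseudocounts of 1 and 0.1, a replicate block and libraries left out. RefSeq (GRCh38.p14) positions matched 65 members; stem-loops and shared stretches of 150 bases come from GENCODE 29 transcripts.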

Additional observations from a re-analysis of the deposited data

How the results depend on the processing

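Over the 32 tested histone genes, 491 alternative fits were made: 468 stayed on the same side of the threshold, 10 lost a call and 13 gained one. The sign turned in 29 of the fits, all of 11 members that were not called, and 0 of these fits passed the threshold; 0 called members turned. Of the 12 called members 9 were called in every alternative that tested them; the exceptions are H3-3A, H2AC11 and H2BC21, whose values are given above. Of 416 such fits of the 26 named list genes, 17 lost a call and 7 gained one, and 2 turned sign, both of SLBP, which was not called. With a filter of at least 10 CPM in 3 libraries, 1 replication-dependent gene was tested and 0 were called higher and 0 lower, which follows from the filter. Leaving out 1 library gave 3 to 4 replication-dependent genes higher and 1 to 2 lower, with 1 lower without celastrol replicate 1, celastrol replicate 3 or control replicate 3. Lower chaperone genes numbered 1 with library size alone and by limma on FPKM with either pseudocount, and 1 to 3 with 1 library left out (1 without celastrol replicate 1 or celastrol replicate 3); the cause was not tested. The log2 ratio of the summed replacement variants moved from -0.01 (-0.0114) to -0.05 (-0.0531) with TMM-scaled CPM and 0.14 (0.144) with FPKM, and that of the replication-dependent share from 0.02 (0.0176) to -0.06 (-0.0622) with FPKM. The log2 ratio of the H2A share of core histone FPKM, 0.18 (0.175), was 0.22 (0.218) without both celastrol replicate 2 and control replicate 1, and 0.159 to 0.199 with 1 library left out; these alternatives were chosen after seeing the data. Same-numbered wells share only a number: the correlations of their deviations were 0.0647, 0.0908 and 0.0518, though each well correlated best with its own number, a hint from the data and not the design. With the replicate number as a block, 3831 genes were higher and 3928 lower, 4 replication-dependent genes were higher and 2 lower, and 0 member calls changed. With no filter on low counts, all 55 replication-dependent genes were tested and 5 were called higher and 2 lower. The added call was H2AC13, whose count is uncertain, as stated above. Low counts still limit these genes: 24 of the 33 that the filter removed had at most 10 counts in every library.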
